A study of Mus musculus with 31 samples.

Results

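Mouse embryonic stem (ES) cells were compared with mesoderm cells that had been made from them and sorted on surface Kdr, a receptor for vascular endothelial growth factor. The comparison takes 6 of the 31 RNA-seq libraries of the series, 3 of Kdr-positive mesoderm and 3 of ES cells, chosen by their labels. Lines RB2, RB3 and RB4 each gave 1 library of either kind, so the replicates are separate ES lines. The mesoderm cells had been differentiated on Matrigel for 4 days in N2B27, a serum-free medium. From the end of the first 2 days that medium held Activin A (4 ng/mL), CHIR99021 (3 µM), human BMP4 (5 ng/mL) and human FGF2 (12.5 ng/mL), and Kdr-positive cells were then collected by flow sorting. The ES cells, at passage 9, had spent 4 days on Matrigel to remove fibroblast feeders, in N2B27 with LIF (1000 U/mL), PD0325901 (1 µM) and CHIR99021 (3 µM), and were not sorted. CHIR99021, a GSK3 inhibitor that activates Wnt signalling, was in both media. PD0325901, which blocks MEK and so ERK, and LIF were in the ES medium alone, and Activin A, BMP4 and FGF2 in the mesoderm medium alone. In every difference below, the medium, the sort and the stage of the cells cannot be told apart. The other libraries, of cells labelled eHB, of endothelial and blood cultures, and primary endothelium and blood stem cells, were used here only for the highest level a gene reached in them.

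In the gastrulating embryo, epiblast cells pass through the primitive streak under Wnt, Nodal, BMP and FGF signals, lose E-cadherin and leave as mesoderm. Those that switch on Kdr go on to form blood, endothelium, heart and smooth muscle. Mouse ES cells kept with LIF and both inhibitors are held in the naive state, close to the epiblast before implantation, by Oct4 (Pou5f1), Sox2, Nanog and a network of further factors. The question the comparison addresses is which parts of the naive programme were gone, and which parts of the mesoderm programme were present, in the sorted cells.

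The promoters of 3 genes whose transcripts differed are printed first, as RefSeq places them on GRCm38.p6. Nanog is shown because it is a core naive gene whose promoter holds a POU and SOX composite motif, the kind of element that Oct4 and Sox2 bind together. The 250 bases before its start, chr6:122707315-122707564 on the plus strand, carry the motif in capitals at -151 from the start, read on the minus strand.
Nanog: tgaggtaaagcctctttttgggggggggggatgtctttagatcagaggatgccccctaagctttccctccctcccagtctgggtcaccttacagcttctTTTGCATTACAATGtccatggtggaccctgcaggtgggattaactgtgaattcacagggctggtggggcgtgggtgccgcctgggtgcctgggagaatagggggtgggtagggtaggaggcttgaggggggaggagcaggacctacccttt
The search was on either strand for CATTGT, 1 free base, ATG, 2 free bases and AA, and 10 of 32851 promoters in the table (0.0304%) held them. Of 26 genes of the pluripotency lists with an entry, Nanog was the 1 that did. Epcam and Crb3, an adhesion protein and a polarity protein of epithelia, are shown for the E-box CAGGTG, the element that Snail and Zeb repressors bind. Their windows are chr17:87635729-87635978 and chr17:57061981-57062230, both on the plus strand, with every E-box of either strand in capitals.
Epcam: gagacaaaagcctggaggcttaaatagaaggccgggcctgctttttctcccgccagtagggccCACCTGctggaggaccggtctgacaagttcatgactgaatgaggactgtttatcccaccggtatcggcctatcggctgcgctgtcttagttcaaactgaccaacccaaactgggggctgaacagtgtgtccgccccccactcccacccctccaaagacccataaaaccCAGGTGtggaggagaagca
Crb3: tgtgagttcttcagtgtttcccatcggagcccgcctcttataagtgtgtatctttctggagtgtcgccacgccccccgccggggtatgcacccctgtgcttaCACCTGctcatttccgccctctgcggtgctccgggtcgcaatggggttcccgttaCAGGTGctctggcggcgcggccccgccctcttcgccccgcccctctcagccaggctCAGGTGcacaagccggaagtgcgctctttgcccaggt
The E-box stood in 5657 of 32851 promoters (17.2%). It stood in 362 of 2166 promoters (16.7%) of genes that were at least 2-fold higher in mesoderm, and in 576 of 2666 (21.6%) of those at least 2-fold lower. Of the 9 epithelial genes in the list on the epithelial to mesenchymal transition, 7 had an entry, and 6 of these (Cldn4, Cldn6, Cldn7, Crb3, Epcam and Ocln) held an E-box. Counted by promoter that was 7 of 10, and counted by gene the E-box stood in 5252 of 27025 overall. Nanog and Crb3 each had 2 starts, and the more downstream is shown. A match describes these letters only, and no binding was measured.

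Levels are in TPM, transcript abundances scaled for gene length and depth, and the values of a group are always given for RB2, RB3 and RB4 in that order. Log2 fold changes (log2FC) are mesoderm over ES cells, fitted on the expected counts, with their standard error after the ± sign. The libraries held 23398070 to 32791641 counts in mesoderm and 21335927 to 23954840 in ES cells. Of 13539 genes tested, 10716 (79.1%) differed by edgeR's quasi-likelihood test at an adjusted p of 0.05, 5295 higher and 5421 lower in mesoderm. Because so many genes differed, members are counted below by the stricter test against a 2-fold change. It was passed by 2253 genes (16.6%) in the higher direction and by 2781 (20.5%) in the lower, and the median of all genes was -0.004. Below, a gene rose or fell where it passed this stricter test, and adjusted p refers to it unless the quasi-likelihood test is named. On the TPM scale with a pseudocount of 1, the median of all genes was -0.29. The 2 tests then gave 3956 higher and 6679 lower genes, and 1121 higher and 2362 lower past a 2-fold change, so modest changes below are on the count scale alone. The first principal component, which separated the stages, held 94.5% of the variance. The second held 2.77% and set mesoderm RB2 (42.05) apart from mesoderm RB3 (-26.05) and RB4 (-16.62). For several genes whose result rested on that library, the log2 fold change without it is also given. Bulk RNA cannot tell fewer cells of a type from less RNA per cell.

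The sort marker and the mesoderm markers were high in every mesoderm library and near 0 in ES cells. Kdr was at 54.2, 89.6 and 95.9 TPM in mesoderm, against 0.142, 0.054 and 0.13 TPM in ES cells (log2FC 9.87 ± 0.34, adjusted p = 9.72e-08), and the groups lay far apart. Since the cells were collected on its product, this checks the labels and is no finding. Markers were set for mesoderm (T, Mixl1, Mesp1, Kdr, Pdgfra and Hand1). Their summed levels were 919, 765 and 697 TPM in mesoderm against 14.8, 10.7 and 7.92 TPM in ES cells. All 6 rose, but the sums and this count include Kdr, which the sort selected for. The rises of T, Mixl1, Mesp1, Pdgfra and Hand1 are those of genes not used in the sort. The ES cell markers Nanog, Esrrb, Zfp42, Klf4, Tbx3, Pou5f1 and Sox2 summed to 247, 254 and 218 TPM in mesoderm against 3360, 3397 and 3404 TPM in ES cells, and 6 of the 7 fell, Tbx3 being the exception.

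**Figure D1:**
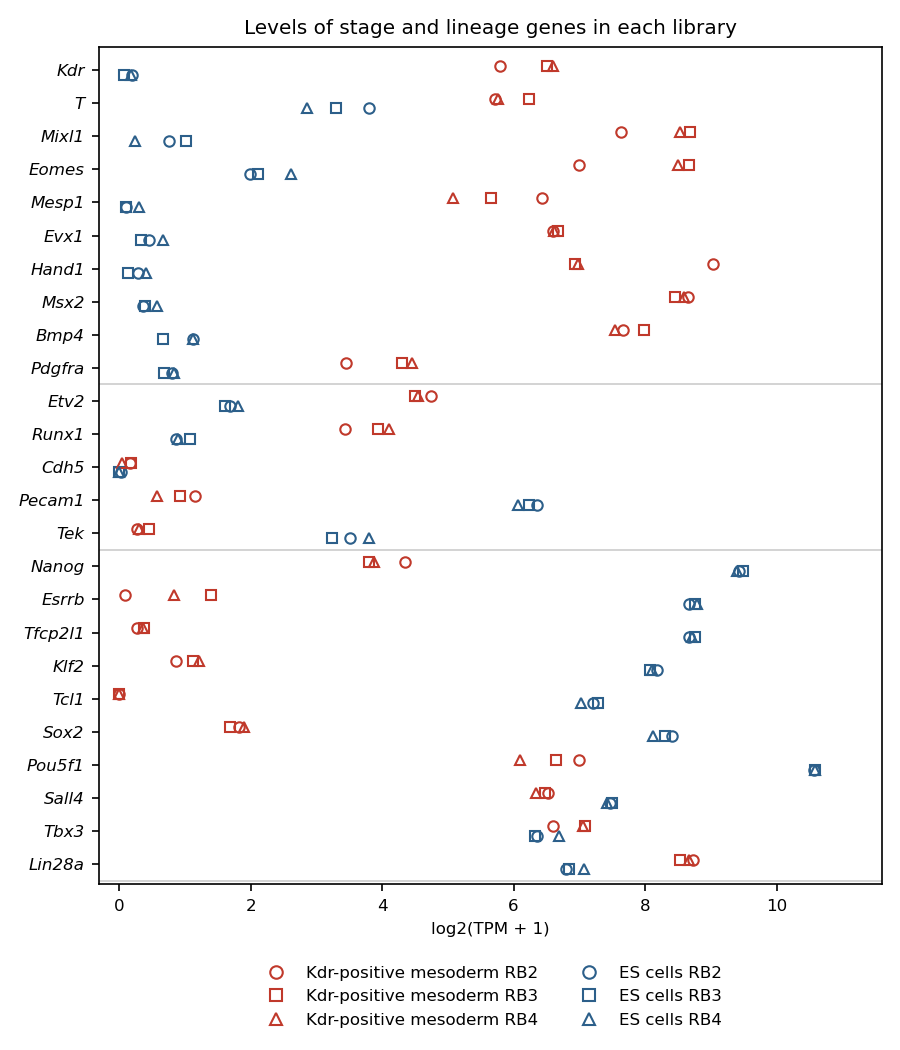
Level of 25 genes in each of the 6 libraries, as log2(TPM + 1) on the horizontal axis, with mesoderm in red and ES cells in blue and a symbol for each ES line. Mesoderm genes (top block) lie to the right in mesoderm, naive genes such as Tfcp2l1 and Tcl1 (bottom block) lie to the right in ES cells, and Tbx3 and Lin28a are higher in mesoderm.

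Genes of the primitive streak had the highest median change of the lists followed here. Of 16 genes on this list, 13 passed the filter on low counts. Of these 10 rose and none fell, with a median log2 fold change of 6.60. T (Brachyury), the T-box factor that marks the streak, was at 51.4, 74.4 and 53.2 TPM in mesoderm, against 12.9, 8.88 and 6.26 TPM in ES cells (log2FC 2.99 ± 0.23, adjusted p = 2.85e-05), so it was already present at a low level in ES cells. Mixl1, a homeobox factor of the streak, was at 197, 411 and 369 TPM in mesoderm, against 0.686, 1.02 and 0.185 TPM in ES cells (log2FC 9.28 ± 0.44, adjusted p = 1.29e-06). Evx1, a homeobox factor of its posterior part, was at 96.3, 101 and 96.5 TPM in mesoderm, against 0.37, 0.258 and 0.587 TPM in ES cells (log2FC 8.25 ± 0.18, adjusted p = 4.73e-09). The 3 mesoderm values of Evx1 lay within a narrow range, whereas Mixl1 was lowest in RB2. Neither Mixl1 nor Evx1 overlapped between the groups. In the other 24 libraries with a usable TPM column Mixl1 did not exceed 0.122 TPM.

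Factors that mark the anterior streak were present as well, and were lowest in line RB2. Eomes, a T-box factor needed for mesoderm and endoderm to leave the streak, was at 127, 405 and 362 TPM in mesoderm, against 2.97, 3.31 and 5.09 TPM in ES cells (log2FC 6.60 ± 0.49, adjusted p = 1.77e-05). Gsc, a homeobox factor of the organizer, was at 16.9, 68.9 and 69.8 TPM in mesoderm, against 9.17, 10.7 and 10.7 TPM in ES cells (log2FC 2.66 ± 0.48, adjusted p = 0.00704). Lhx1, a LIM homeobox factor, was at 16.8, 40.5 and 29.5 TPM in mesoderm, against 0.033, 0.022 and 0.033 TPM in ES cells (log2FC 10.23 ± 0.49, adjusted p = 5.12e-07). Within mesoderm, RB2 had the lowest value of all 3, but still lay above every ES library. Mesp1, a bHLH factor of the first mesoderm to leave the streak, ran in the other order, at 85.3, 49.6 and 32.8 TPM in mesoderm, against 0.076, 0.075 and 0.239 TPM in ES cells (log2FC 9.01 ± 0.63, adjusted p = 8.33e-06, and 9.70 without ES cells RB4). Foxa2, which marks the anterior streak and endoderm, did not pass the filter and stood at 0, 1.06 and 0.735 TPM in mesoderm, against 0.152, 0.312 and 0.25 TPM in ES cells. Of the streak's ligands, Wnt3 was at 64, 123 and 111 TPM in mesoderm, against 0.762, 0.614 and 0.587 TPM in ES cells (log2FC 7.56 ± 0.28, adjusted p = 1.4e-07) and Fgf8 at 51.7, 106 and 98.2 TPM in mesoderm, against 0.381, 0.258 and 0.282 TPM in ES cells (log2FC 8.45 ± 0.38, adjusted p = 3.46e-07). Nodal, the ligand that patterns the streak, was lower in mesoderm, at 19.5, 52.2 and 49.3 TPM against 106, 88 and 103 TPM in ES cells. That passed the quasi-likelihood test (adjusted p = 0.0173) but not the test against a 2-fold change.

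Genes of lateral, cardiac and extraembryonic mesoderm rose as well, and 3 of their transcription factors passed 100 TPM in every mesoderm library. Of 21 genes on this list 19 were tested, of which 12 rose and 1 fell, with a median of 3.84. Msx2 and Msx1, homeobox factors that respond to BMP, stood at 401, 349 and 385 TPM and 355, 492 and 414 TPM in mesoderm, against 0.283, 0.312 and 0.489 TPM and 0.871, 0.678 and 0.641 TPM in ES cells. Their log2 fold changes were 10.34 ± 0.20 and 9.49 ± 0.15 (adjusted p = 3.01e-09 and 2.61e-09), and their mesoderm values differed little between lines. Hand1, a bHLH factor of lateral and extraembryonic mesoderm, was at 521, 121 and 125 TPM in mesoderm, against 0.218, 0.097 and 0.326 TPM in ES cells. Its RB2 value was far above that of both other lines, and the log2 fold change of 10.57 ± 1.08 (adjusted p = 0.000106) was 9.45 without that library. Foxf1, a forkhead factor of the same tissues, showed the same order, at 99.6, 24.8 and 30.3 TPM in mesoderm, against 0, 0 and 0.043 TPM in ES cells. Gata4 and Gata6, zinc finger factors of heart and endoderm, were at 74.7, 112 and 114 TPM and 20, 40 and 32.3 TPM in mesoderm, against 0.816, 0.926 and 1.25 TPM and 0.065, 0.151 and 0.163 TPM in ES cells.

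Later heart genes were low. Isl1, which marks progenitors of the second heart field, was at 4.91, 4.21 and 1.73 TPM in mesoderm, against 0.544, 0.452 and 0.63 TPM in ES cells (log2FC 3.05 ± 0.44, adjusted p = 0.00101). Nkx2-5, a homeobox factor of heart progenitors, was at 0.661, 1.3 and 0.674 TPM in mesoderm, against 0.207, 0.118 and 0.065 TPM in ES cells (log2FC 3.00 ± 0.55, adjusted p = 0.0042), so it rose and yet remained near 1 TPM. The muscle factor Mef2c did not pass the filter, at no more than 0.051 TPM in any of the 6 libraries. Myl7, an atrial myosin light chain, was at 1.09, 1.96 and 2.24 TPM in mesoderm, against 3.06, 4.6 and 3.04 TPM in ES cells and did not pass the quasi-likelihood test (adjusted p = 0.124). Smarcd3, a subunit of the BAF chromatin complex in heart, was the 1 member that fell, at 22.3, 10.7 and 8.92 TPM in mesoderm, against 50.9, 48.5 and 62.7 TPM in ES cells (log2FC -1.61 ± 0.35, adjusted p = 0.0479). That call was lost without any 1 of the 3 ES libraries or without mesoderm RB3 or RB4, where the log2 fold change was -1.67, -1.68, -1.49, -1.41 and -1.37.

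Paraxial mesoderm genes gave a mixed picture, and line RB2 held the most of several of them. Of 16 genes 13 were tested, of which 8 rose and 3 fell (median 2.57). Msgn1, a bHLH factor of presomitic mesoderm, was at 32.2, 12.2 and 5.08 TPM in mesoderm, highest in RB2, and at 0 in all 3 ES libraries. Dll3, a Notch family member of presomitic mesoderm, was at 18.1, 21.1 and 10.9 TPM in mesoderm, against 0.925, 0.71 and 1.09 TPM in ES cells (log2FC 4.51 ± 0.28, adjusted p = 2.6e-06). Rspo3, a secreted Wnt enhancer, was at 18.9, 18.9 and 10.4 TPM in mesoderm, against 0.087, 0.161 and 0.174 TPM in ES cells (log2FC 7.11 ± 0.38, adjusted p = 6.83e-07). Cdx2, a homeobox factor of the posterior body and of trophoblast, was at 61.3, 15.3 and 9.69 TPM in mesoderm, against 2.05, 2.04 and 1.52 TPM in ES cells. Its RB2 value exceeded that of both other lines, and its log2 fold change of 4.30 ± 0.79 (adjusted p = 0.004) was 3.01 without that library. Its relative Cdx1 moved the other way, at 3.72, 8.25 and 3.56 TPM in mesoderm, against 29.2, 30.5 and 16.3 TPM in ES cells (log2FC -1.99 ± 0.34, adjusted p = 0.00721). Aldh1a2, which makes retinoic acid in the trunk mesoderm, also fell, at 1.19, 0.56 and 0.235 TPM in mesoderm, against 9.49, 10.8 and 8.54 TPM in ES cells (log2FC -3.56 ± 0.46, adjusted p = 0.000451, and -4.34 without mesoderm RB2). Tcf15, a marker of later paraxial mesoderm, was at 2.39, 2.48 and 1.37 TPM in mesoderm, against 1.64, 3.01 and 1.52 TPM in ES cells, and its groups overlapped. Pax3 and Foxc2 did not pass the filter.

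Hox genes, which give mesoderm its position along the body axis, were at low levels, and Hoxb2, of the anterior end of cluster B, was among the most abundant. Of 33 Hox genes 17 passed the filter. Of these 11 rose and 1 fell (2 fell without mesoderm RB2), with a median of 3.38. Hoxb2 was at 46.9, 17.3 and 21.8 TPM in mesoderm, against 0, 0.054 and 0.13 TPM in ES cells, and Hoxb3 at 13.2, 6.25 and 6.54 TPM in mesoderm, against 0, 0.054 and 0 TPM in ES cells. Both were highest in RB2, and no ES library reached the lowest mesoderm value. Hoxd1 was at 10.2, 4.97 and 5.92 TPM in mesoderm and at 0 in all ES libraries, at least 161-fold higher. Hoxb6 was at 7.51, 0.815 and 1.27 TPM in mesoderm, a level set mostly by RB2, and likewise at 0 in ES cells. Hoxa13, a gene of the far end of the cluster, was at 3.25, 4.35 and 6.08 TPM in mesoderm, against 0.076, 0 and 0 TPM in ES cells. Hoxa9 and Hoxa10, which mark later blood progenitors, did not pass the filter, at no more than 0.02 and 0.722 TPM in mesoderm. Hoxc10 was the 1 that fell, at 0, 0 and 0.092 TPM in mesoderm, against 0.599, 0.829 and 0.652 TPM in ES cells.

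Early hemato-endothelial factors rose, whereas Cdh5 and Emcn of endothelium and Ptprc and the embryonic globin genes of blood were at or near 0 in mesoderm. Of 20 hemangioblast genes 14 were tested, of which 8 rose and 1 fell (median 3.94). Etv2, an ETS factor that starts both blood and endothelium, was at 25.8, 21.6 and 22.3 TPM in mesoderm, against 2.22, 2.06 and 2.49 TPM in ES cells (log2FC 3.70 ± 0.21, adjusted p = 1.93e-06). Runx1, needed for blood to emerge from endothelium, was at 9.8, 14.4 and 16.3 TPM in mesoderm, against 0.816, 1.11 and 0.858 TPM in ES cells (log2FC 4.18 ± 0.22, adjusted p = 9.2e-07). Ets1 was at 11.51, 30.1 and 24.6 TPM in mesoderm, against 0.446, 0.614 and 0.337 TPM in ES cells (log2FC 5.88 ± 0.41, adjusted p = 9.02e-06). The mesoderm values of Etv2 were alike, while Ets1 was lowest in RB2. Lmo2, a bridging protein of blood transcription complexes, was at 8.12, 20.5 and 23.6 TPM in mesoderm, against 0.599, 0.344 and 0.315 TPM in ES cells (log2FC 5.72 ± 0.49, adjusted p = 2.05e-05). Its row shares coding sequence with a separate ectopic Lmo2 row, so the split of reads between them is uncertain. The members that usually follow Etv2 were low. Tal1 was at 0.804, 0.305 and 0.02 TPM in mesoderm and did not pass the filter, and Fli1 was at 0.702, 1.59 and 1.09 TPM in mesoderm, against 0, 0 and 0.011 TPM in ES cells. Erg, Gfi1, Lyl1 and Sox18 did not pass the filter, and none exceeded 0.305 TPM in mesoderm. Sox7, a Sox factor of early endothelium, fell, at 0.244, 0.367 and 0.112 TPM in mesoderm, against 1.19, 1.21 and 1.71 TPM in ES cells (log2FC -2.22 ± 0.42, adjusted p = 0.00869).

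Of the 16 endothelial markers, 11 were tested, of which 2 rose and 6 fell (median -2.02). The falls came from transcripts that ES cells themselves carried. Pecam1, a junction protein of endothelium and also a surface protein of ES cells, was at 1.22, 0.896 and 0.49 TPM in mesoderm, against 81.2, 74.2 and 65.6 TPM in ES cells (log2FC -6.11 ± 0.25, adjusted p = 2.28e-07). Tek, the angiopoietin receptor, was at 0.214, 0.367 and 0.235 TPM in mesoderm, against 10.4, 8.43 and 12.9 TPM in ES cells (log2FC -4.98 ± 0.25, adjusted p = 6.13e-07) and Vwf, von Willebrand factor, at 0.112, 0.071 and 0.041 TPM in mesoderm, against 16.8, 17.4 and 12.7 TPM in ES cells (log2FC -7.43 ± 0.27, adjusted p = 5.8e-08). For all 3, the lowest ES value lay well above the highest mesoderm value. Cdh5, which encodes VE-cadherin, did not exceed 0.132 TPM in any of the 6 libraries, and Emcn was at 0 in all of them. Other endothelial genes were detected in all 6 libraries. Eng, a co-receptor of TGF-beta family ligands, was at 26.5, 14.3 and 19.4 TPM in mesoderm, against 30.9, 24.1 and 28.2 TPM in ES cells and did not pass the quasi-likelihood test (adjusted p = 0.65), although it did, as lower, without mesoderm RB2 (log2FC -0.41). Egfl7, a secreted protein of endothelium on the hemangioblast list, was at 84.7, 49.5 and 57.8 TPM in mesoderm, against 38, 33.2 and 29 TPM in ES cells (log2FC 1.28 ± 0.23, quasi-likelihood adjusted p = 0.000867), and Ecscr, an endothelial surface protein, at 6.17, 5.01 and 4.34 TPM in mesoderm, against 3.36, 3.09 and 1.8 TPM in ES cells (log2FC 1.24 ± 0.31, quasi-likelihood adjusted p = 0.00521). In the same series Cdh5 reached 3102 TPM and Kdr 1154 TPM in other libraries. The receptors Flt1 and Flt4, close relatives of Kdr, rose but stayed low, at 2.36, 1.16 and 1.35 TPM and 1.07, 1.65 and 1 TPM in mesoderm against 0.065, 0.011 and 0 TPM and 0.185, 0.118 and 0.033 TPM in ES cells. Of 15 blood markers 7 were tested, of which 2 rose and 1 fell (median 0.89). The receptor gene Epor, for erythropoietin, rose, at 3.82, 7.79 and 5.7 TPM in mesoderm, against 0.566, 0.463 and 0.282 TPM in ES cells (log2FC 4.01 ± 0.36, adjusted p = 3.31e-05). Itga2b, integrin alpha IIb of early blood cells and platelets, was at 1.17, 0.753 and 0.623 TPM in mesoderm, against 0.435, 0.226 and 0.304 TPM in ES cells (log2FC 1.73 ± 0.41, adjusted p = 0.047), and its call was lost with the ES line as a replicate block (1.72) and without mesoderm RB2 (1.39) or any 1 ES library (1.99, 1.51 and 1.70). Ptprc (CD45) and the embryonic globin genes Hbb-bh1, Hbb-y and Hba-x did not pass the filter, and none exceeded 0.692 TPM.

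Naive pluripotency factors were lower in mesoderm almost throughout. All 17 were tested, of which 16 fell and none rose, with a median of -8.13. Tfcp2l1, a factor of the LIF and Wnt arms of the naive network, was at 0.203, 0.305 and 0.286 TPM in mesoderm, against 406, 432 and 419 TPM in ES cells (log2FC -10.29 ± 0.14, adjusted p = 1.12e-09). Klf2, a Kruppel-like factor of the naive network, was at 0.814, 1.17 and 1.32 TPM in mesoderm, against 289.5, 269.6 and 275 TPM in ES cells (log2FC -7.62 ± 0.14, adjusted p = 3.01e-09). Nr5a2, a nuclear receptor that drives Pou5f1, was at 0.092, 0.122 and 0.112 TPM in mesoderm, against 46.6, 50.5 and 52.1 TPM in ES cells (log2FC -8.45 ± 0.16, adjusted p = 3.01e-09). The mesoderm values of all 3 lay close together and far from those of ES cells. Tcl1, an Akt coactivator, was at 0 in all 3 mesoderm libraries and at 147, 155 and 129 TPM in ES cells, at least 2350-fold lower. Dppa3, a maternal factor that protects DNA methylation, was likewise at 0, against 93.9, 96.8 and 81.7 TPM in ES cells, at least 920-fold lower. Esrrb, an orphan nuclear receptor, was at 0.061, 1.64 and 0.776 TPM in mesoderm, against 406, 433 and 439 TPM in ES cells, and its log2 fold change of -8.68 ± 0.54 (adjusted p = 5.96e-06) was -9.44 without mesoderm RB3, the library that held the most. Nanog itself was at 19.4, 13 and 13.7 TPM in mesoderm, against 686, 715 and 669 TPM in ES cells (log2FC -5.15 ± 0.19, adjusted p = 1.32e-07), so it kept a level well above that of Esrrb, Klf2 or Tcl1. The smallest falls were those of Klf5 (-2.65 ± 0.11) and Zfp57 (-2.84 ± 0.17), a protector of imprints. Tbx3 alone was higher, at 95.4, 134 and 132 TPM in mesoderm, against 80.4, 79 and 102 TPM in ES cells, which passed the quasi-likelihood test (log2FC 0.80 ± 0.14, quasi-likelihood adjusted p = 0.000548) but not the test against a 2-fold change.

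Factors shared by naive cells and early derivatives split. Of 19 tested, 5 rose and 7 fell (median -0.68). Pou5f1 (Oct4) remained at 127, 99.5 and 67.3 TPM in mesoderm against 1514, 1531 and 1526 TPM in ES cells (log2FC -3.63 ± 0.22, adjusted p = 5.06e-06), and the groups did not overlap. Its partner Sox2 fell further, to 2.52, 2.21 and 2.75 TPM against 337, 314 and 278 TPM in ES cells (log2FC -6.61 ± 0.14, adjusted p = 4.84e-09). Sall4, which binds AT-rich DNA with the NuRD complex, was lower past the quasi-likelihood test alone, at 91.3, 88.2 and 80.4 TPM in mesoderm, against 176, 179 and 169.7 TPM in ES cells (log2FC -0.68 ± 0.08, quasi-likelihood adjusted p = 6.81e-05). Foxd3, a forkhead factor of epiblast and neural crest, was at 0 in all mesoderm libraries and at 28.9, 24.5 and 20.9 TPM in ES cells, at least 668-fold lower. Lin28a, which blocks let-7 maturation, rose to 423, 368 and 407 TPM against 109.7, 113 and 133 TPM in ES cells (log2FC 2.09 ± 0.13, adjusted p = 1.4e-05). Its relative Lin28b rose by about as much, at 11.7, 9.79 and 10.2 TPM against 3.45, 3.31 and 3.38 TPM (log2FC 1.98 ± 0.14, adjusted p = 5.01e-05). Markers of the primed epiblast depended on the line. Fgf5 was at 0.478, 11.4 and 8.62 TPM in mesoderm, against 0.185, 0.118 and 0.12 TPM in ES cells (log2FC 5.90 ± 1.20, adjusted p = 0.00574) and Otx2 at 2.89, 15.6 and 12.4 TPM in mesoderm, against 3, 3.48 and 7.5 TPM in ES cells. In mesoderm RB2 the value of Otx2 was below all 3 ES values, and that of Fgf5 was the lowest of the mesoderm values.

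The LIF receptor chain and its feedback genes were lower, in a comparison where LIF was in the ES medium alone. Of 11 genes on the LIF and STAT3 list, 5 fell and 1 rose (median -1.18). Lifr, the receptor subunit, was at 9.39, 11.3 and 12.3 TPM in mesoderm, against 46.8, 44.3 and 47.2 TPM in ES cells (log2FC -1.74 ± 0.09, adjusted p = 1.78e-05). Socs3, the feedback inhibitor that STAT3 induces, was at 17.4, 6.87 and 6.74 TPM in mesoderm, against 78.3, 82.1 and 84.6 TPM in ES cells (log2FC -2.64 ± 0.38, adjusted p = 0.00234, and -3.29 without mesoderm RB2). Osm, a cytokine of the LIF family, was at 0 in mesoderm and at 48.8, 46.2 and 38.1 TPM in ES cells, at least 1150-fold lower. Stat3 itself was at 39.4, 25.1 and 22.5 TPM in mesoderm, against 73.9, 75.8 and 73.7 TPM in ES cells, past the quasi-likelihood test alone (log2FC -1.02 ± 0.21, quasi-likelihood adjusted p = 0.00238). Junb, the 1 member that rose, is an immediate-early gene as well, at 34.4, 33.8 and 21.9 TPM in mesoderm, against 6.92, 7.79 and 6.14 TPM in ES cells (log2FC 2.43 ± 0.20, adjusted p = 5.11e-05).

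Genes of the germ line and of meiosis, which naive ES cells also express, were lower in mesoderm. Of 12 germ cell markers 8 fell and none rose (median -2.77). Kit, the stem cell factor receptor, was at 6.16, 6.25 and 6.75 TPM in mesoderm, against 178, 168 and 142 TPM in ES cells (log2FC -4.34 ± 0.12, adjusted p = 1.78e-08), and Ddx4, the germ cell helicase Vasa, at 0.722, 1.14 and 0.643 TPM in mesoderm, against 7.61, 7.73 and 10.8 TPM in ES cells (log2FC -3.08 ± 0.26, adjusted p = 3.45e-05). Of 20 germline and meiosis genes, a list drawn up after values were seen, 16 were tested, of which 15 fell and none rose (median -5.55, or -4.95 with genes at 0 set to their bound). Tdrd12, of the piRNA machinery, was at 0.193, 0.224 and 0.143 TPM in mesoderm, against 118, 119.8 and 104 TPM in ES cells (log2FC -8.90 ± 0.17, adjusted p = 3.01e-09). Hormad1, of the meiotic chromosome axis, was at 0 in mesoderm and at 26.6, 25.4 and 26.7 TPM in ES cells, at least 459-fold lower, and Fkbp6 was at least 572-fold lower on the same terms. Of the 10 two-cell-like genes, 6 were tested, 2 rose and 3 fell, and since several are near-identical copies their counts are uncertain.

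Markers of other cell types that the cultures could hold were followed in each library. For endothelium (Cdh5, Pecam1, Tek, Tie1, Emcn and Esam) the summed levels were 1.93, 1.68 and 0.91 TPM in mesoderm against 92.4, 83.2 and 79.4 TPM in ES cells, Pecam1 and Tek making up nearly all of the ES sum. For blood they were 2.26, 2.27 and 1.45 TPM in mesoderm against 4.59, 4.37 and 2.73 TPM in ES cells. For neural ectoderm they were 0.031, 0.376 and 0.082 TPM in mesoderm against 1.39, 0.915 and 1.39 TPM in ES cells. Both sums were low in all 6 libraries. Definitive endoderm markers summed to 106, 119 and 130 TPM in mesoderm against 744, 542 and 600 TPM in ES cells, but 1 gene carried each sum. In mesoderm it was Cxcr4, at 97.7, 111 and 124 TPM against 4.97, 3.14 and 5.04 TPM in ES cells, a chemokine receptor that mesoderm also expresses. In ES cells it was Trh, at 7.95, 3.29 and 2.73 TPM in mesoderm, against 738, 538 and 594 TPM in ES cells. Sox17, the endoderm factor, stood at 0.671, 2.46 and 2.49 TPM in mesoderm. Of all 13 definitive endoderm genes 8 were tested, of which 2 rose and 3 fell (4 rose without mesoderm RB2).

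Visceral and primitive endoderm markers summed to 21.6, 41.3 and 34.1 TPM in mesoderm against 1.44, 1.61 and 2.53 TPM in ES cells. Gata6 carried nearly all of it, while Afp did not exceed 0.041 TPM in mesoderm and Ttr was at 0 in all 6 libraries. Of the fuller list of 14 genes 12 were tested, of which 7 rose and 2 fell (median 3.04). Those that rose include Gata4, Gata6 and Pdgfra, which mesoderm also expresses. They include too the visceral endoderm genes Dab2, an endocytic adaptor, at 2.55, 2.82 and 2.76 TPM in mesoderm, against 0.359, 0.452 and 0.619 TPM in ES cells (log2FC 2.77 ± 0.27, adjusted p = 0.000122), and Amn, a partner of cubilin in uptake, at 1.39, 0.753 and 1.67 TPM in mesoderm, against 0.065, 0.108 and 0.304 TPM in ES cells (log2FC 3.31 ± 0.61, adjusted p = 0.00394, and 4.12 without ES cells RB4). The call of Amn was lost on the log2(TPM + 1) scale (0.96). Cubn, cubilin itself, was lower, at 0.031, 0.081 and 0.02 TPM in mesoderm, against 0.12, 0.097 and 0.206 TPM in ES cells (log2FC -1.43 ± 0.59, quasi-likelihood adjusted p = 0.0477). Of 13 trophoblast genes 9 were tested, of which 5 rose and 2 fell (median 4.30), and the rises were Cdx2, Eomes, Hand1, Krt8 and Krt18. The defining trophoblast genes Tpbpa and Prl3d1 were at 0 in all 6 libraries, and Elf5 did not exceed 0.153 TPM. Krt8 and Krt18, the keratins of simple epithelia, were at 1007, 1017 and 804 TPM and 678, 519 and 438 TPM in mesoderm, against 21.8, 20.7 and 28.4 TPM and 3.02, 3.94 and 5.76 TPM in ES cells. Of 14 neural and ectoderm genes 5 were tested, of which 3 rose and 1 fell (2 fell without mesoderm RB2 or RB4, or without ES cells RB4). Sox1, which marks neural plate, fell (-3.49 ± 0.42), and Nes, nestin, an intermediate filament also found in mesoderm, rose, at 23, 55.6 and 39.6 TPM in mesoderm, against 9.73, 10.1 and 8.42 TPM in ES cells (log2FC 2.37 ± 0.25, adjusted p = 0.000443).

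Fibroblast markers were followed because feeders had been removed from the ES cultures. Those of the short marker set (Col1a1, Col1a2, Col3a1, Dcn, Lum, Postn and Thy1) summed to 78.4, 27.6 and 25.4 TPM in mesoderm against 4.87, 8.04 and 12.9 TPM in ES cells. Of these 7 genes 2 rose (Col1a1 and Thy1), 1 fell and 3 were not tested. Col1a1 carried the mesoderm sum, at 68.5, 20.6 and 17.6 TPM in mesoderm, against 1.71, 2.84 and 4.17 TPM in ES cells (log2FC 3.97 ± 0.65 and 3.00 without mesoderm RB2). Dcn, Lum and Postn, which feeders express strongly, did not exceed 0.133 TPM in mesoderm or 0.913 TPM in any ES library. The collagen genes Col1a2 and Col3a1 of the same set were detected in every ES library, at 0.784, 1.72 and 2.64 TPM and 0.718, 1.54 and 2.62 TPM. In mesoderm they were at 3.39, 2.46 and 2.79 TPM and 0, 0.153 and 0.306 TPM. Like Col1a1, both were lowest in RB2 and highest in RB4 among the ES libraries. Of the fuller list of 15 genes 11 were tested, of which 8 rose and 1 fell (median 3.599). The fall was that of the collagen gene Col3a1, and it was lost without mesoderm RB3 (-2.86), ES cells RB3 (-3.03) or ES cells RB4 (-2.47). Twist2, at 11.3, 11.7 and 6.03 TPM in mesoderm and 0 in ES cells, was at least 159-fold higher, and Pdgfrb, the receptor for PDGF-BB, was at 21, 35.4 and 26.1 TPM in mesoderm, against 0.555, 0.409 and 0.695 TPM in ES cells (log2FC 5.95 ± 0.22, adjusted p = 8.06e-08). Feeder genes and mesoderm genes overlap, and the part of feeder RNA in these levels was not tested.

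**Figure D2:**
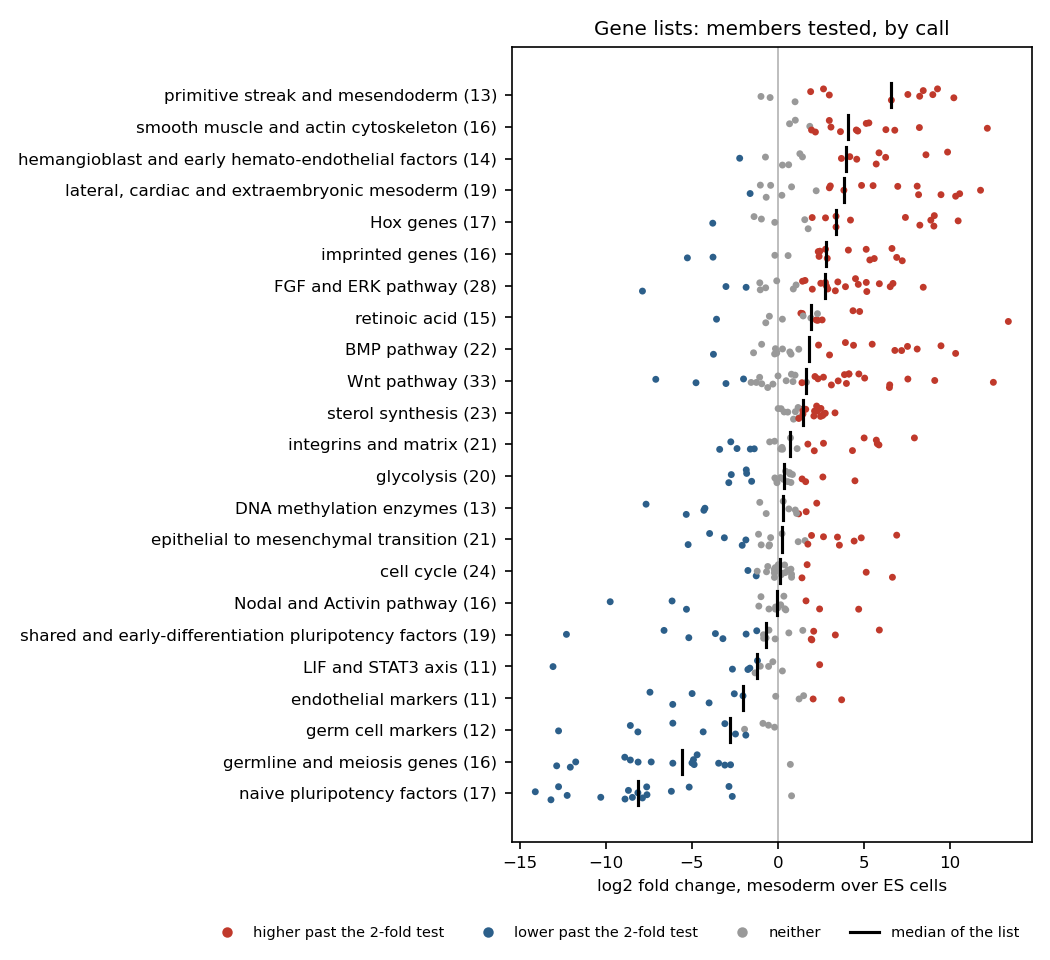
Log2 fold change (mesoderm over ES cells, horizontal axis) of every tested member of 23 gene lists, 1 row per list with the number tested in brackets, ordered by the median (black tick). Red points rose and blue points fell past the test against a 2-fold change, and grey points did neither. The primitive streak list has the highest median (6.60) and the naive list the lowest (-8.13).

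E-cadherin and other epithelial genes fell while mesenchymal genes rose. Of 21 genes on the epithelial to mesenchymal transition list, 8 rose and 5 fell (median 0.24). Cdh1, which encodes E-cadherin, was at 6.76, 16.7 and 5.09 TPM in mesoderm, against 462, 412 and 419 TPM in ES cells (log2FC -5.21 ± 0.40, adjusted p = 2.25e-05), and Cdh2, N-cadherin, at 61.5, 116 and 80.3 TPM in mesoderm, against 5.91, 4.65 and 4.18 TPM in ES cells (log2FC 4.44 ± 0.21, adjusted p = 7.09e-07). The 2 genes thus exchanged places between the stages, and in neither did the groups overlap. Snai1, a repressor of E-cadherin, was at 83, 88.4 and 79.5 TPM in mesoderm, against 8.01, 7.26 and 11.1 TPM in ES cells (log2FC 3.58 ± 0.16, adjusted p = 3.8e-07), while its relative Snai2 stayed at or under 1.74 TPM in every library. Zeb2 rose (6.91 ± 0.25), at 4.98, 7 and 7.05 TPM in mesoderm against 0.076, 0.043 and 0.087 TPM in ES cells, and its relative Zeb1 was lower by less than 2-fold, at 5.85, 6.67 and 7.92 TPM against 11, 12.5 and 13.3 TPM. Twist1 was at 13.6, 16 and 12.3 TPM in mesoderm, against 0.642, 0.344 and 0.826 TPM in ES cells (log2FC 4.85 ± 0.28, adjusted p = 1.55e-06).

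Among the genes whose promoters hold the E-box, Crb3 was at 3.12, 2.47 and 1.74 TPM in mesoderm, against 13.4, 10.2 and 9.65 TPM in ES cells (log2FC -1.86 ± 0.28, adjusted p = 0.00538). Epcam was at 14.2, 30.6 and 17.2 TPM in mesoderm, against 69.2, 55.9 and 41.7 TPM in ES cells, past the quasi-likelihood test alone (log2FC -1.12 ± 0.26, quasi-likelihood adjusted p = 0.00376). Ocln, a tight junction protein, was at 0.366, 0.336 and 0.225 TPM in mesoderm, against 1.92, 1.91 and 1 TPM in ES cells (log2FC -2.07 ± 0.37, adjusted p = 0.00757). Cldn4, a claudin, was at 17.2, 33.9 and 5.83 TPM in mesoderm, against 217, 183 and 197 TPM in ES cells (log2FC -3.11 ± 0.49, adjusted p = 0.00259, and -3.75 without mesoderm RB3). Cldn6 did not pass either test, and its groups overlapped, at 9.36, 13.7 and 1.98 TPM in mesoderm, against 17.4, 12.2 and 13.2 TPM in ES cells. Cldn7 was at 4.34, 4.03 and 1.34 TPM in mesoderm, against 8.31, 8.2 and 8.67 TPM in ES cells (log2FC -0.97 ± 0.39, quasi-likelihood adjusted p = 0.0462), a call lost with upper-quartile factors (-0.95) and without mesoderm RB3 (-1.11) or RB4 (-0.57) or any 1 ES library (-0.97, -0.98 and -0.96). Of the epithelial genes not among these 6, the splicing factor Esrp1 was higher in mesoderm rather than lower, at 2.58, 5.72 and 2.12 TPM in mesoderm, against 1.19, 1.26 and 1.81 TPM in ES cells (log2FC 1.58 ± 0.36, quasi-likelihood adjusted p = 0.00288). Transcripts of an epithelial kind were thus not uniformly lower, and the keratins Krt8 and Krt18 were among the abundant genes of mesoderm.

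Matrix and integrin genes changed by member rather than as a block. Of 22 genes 21 were tested, of which 9 rose and 5 fell (median 0.74). Type IV collagen rose, Col4a1 being at 129, 158 and 172 TPM in mesoderm, against 3.33, 2.81 and 4.32 TPM in ES cells (log2FC 5.78 ± 0.18, adjusted p = 4.17e-08) and Col4a2 at 72.2, 83.7 and 92.9 TPM in mesoderm, against 1.69, 1.54 and 2.1 TPM in ES cells (log2FC 5.88 ± 0.15, adjusted p = 1.15e-08). Laminin chains split. Lama1 was at 3.83, 3.75 and 2.77 TPM in mesoderm, against 46.4, 42.8 and 45.6 TPM in ES cells (log2FC -3.38 ± 0.13, adjusted p = 1.68e-07) and Lamc1 at 48, 49.4 and 44.3 TPM in mesoderm, against 331, 309 and 282 TPM in ES cells (log2FC -2.37 ± 0.09, adjusted p = 4.74e-07), both lower, whereas Lama4 was at 10.9, 4.11 and 6.74 TPM in mesoderm, against 0.468, 0.409 and 0.5 TPM in ES cells (log2FC 4.34 ± 0.43, adjusted p = 8.12e-05). Has2, which makes hyaluronan, was at 18.1, 27.3 and 23.2 TPM in mesoderm, against 0.229, 0.043 and 0.076 TPM in ES cells (log2FC 7.94 ± 0.31, adjusted p = 1.03e-07, and 8.82 without ES cells RB2). Fibronectin, Fn1, was abundant in both stages at 729, 1113 and 955 TPM in mesoderm, against 1058, 1012 and 879 TPM in ES cells and did not pass the quasi-likelihood test (adjusted p = 0.111). Without mesoderm RB2 it passed that test, as higher (log2FC 0.36). Its receptor subunits rose, Itga5 at 51.2, 101 and 58.5 TPM in mesoderm, against 12.3, 10.6 and 18.4 TPM in ES cells (log2FC 2.65 ± 0.27, adjusted p = 0.000262) and Itgb1 at 146, 228 and 178 TPM in mesoderm, against 74.3, 68.5 and 62.4 TPM in ES cells (log2FC 1.75 ± 0.12, adjusted p = 8.06e-05), while Itgav fell (-1.60 ± 0.12).

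Actin-binding and smooth muscle genes were among the clearest rises. Of 17 genes 16 were tested, of which 13 rose and none fell (median 4.10). Tpm1, a tropomyosin, was at 1275, 1536 and 1224 TPM in mesoderm, against 48.5, 44.7 and 47.9 TPM in ES cells (log2FC 5.14 ± 0.09, adjusted p = 3.01e-09). Tagln, transgelin, was at 261, 320.2 and 223 TPM in mesoderm, against 0.795, 0.947 and 1.62 TPM in ES cells (log2FC 8.23 ± 0.21, adjusted p = 9.21e-09). Cnn1, calponin, was at 20.3, 18.4 and 16.2 TPM in mesoderm and 0 in all ES libraries, at least 533-fold higher. Acta2, smooth muscle actin itself, was much lower than these, at 8.13, 4.06 and 4.07 TPM in mesoderm, against 0.294, 0.108 and 0.12 TPM in ES cells (log2FC 5.29 ± 0.54, adjusted p = 5.63e-05). In none of these genes did the groups overlap. Lmod1, a gene of mature smooth muscle, did not pass the quasi-likelihood test (adjusted p = 0.135), at no more than 0.54 TPM in mesoderm.

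Signalling genes were grouped by pathway, from ligands to targets. The BMP list showed 11 rises and 1 fall among 22 genes, all tested (median 1.79, and 2 falls without mesoderm RB3). The ligands Bmp4 and Bmp2 stood at 202, 251 and 185 TPM and 41.5, 30.4 and 23 TPM in mesoderm, against 1.18, 0.592 and 1.18 TPM and 0.207, 0.215 and 0.206 TPM in ES cells, with log2 fold changes of 8.10 ± 0.19 and 7.54 ± 0.33 (adjusted p = 5.84e-09 and 2.99e-07). The receptor genes Bmpr1a and Acvr1 did not pass the quasi-likelihood test (adjusted p = 0.519 and 0.0652). Without mesoderm RB2, Acvr1 passed that test, as higher (log2FC 0.35). Of the signal transducers, Smad1 was at 41.6, 83.5 and 78.6 TPM in mesoderm, against 15.9, 16.3 and 16.9 TPM in ES cells (log2FC 2.37 ± 0.22, adjusted p = 0.000176), while Smad5 was at 10.8, 18.1 and 16.4 TPM in mesoderm, against 20.2, 20.2 and 18.8 TPM in ES cells and did not pass the quasi-likelihood test (adjusted p = 0.658). The inhibitors Smad6 and Bambi rose (4.40 ± 0.16 and 3.93 ± 0.13), whereas Smad7 stayed at 30.4, 38.2 and 30.7 TPM in mesoderm, against 44.6, 41.1 and 50.9 TPM in ES cells.

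The ID proteins, inhibitors of bHLH factors and direct BMP targets, did not move together. Id1 was at 259, 259 and 189 TPM in mesoderm, against 2.99, 2.57 and 2.34 TPM in ES cells (log2FC 6.80 ± 0.18, adjusted p = 1.15e-08) and Id3 at 349, 362 and 332 TPM in mesoderm, against 7.7, 7.72 and 13.9 TPM in ES cells (log2FC 5.49 ± 0.22, adjusted p = 2.13e-07). Id2 was at 15.9, 31.6 and 19.6 TPM in mesoderm, against 16, 15 and 20.4 TPM in ES cells, past the quasi-likelihood test alone, with a log2 fold change of 0.70 ± 0.22 that was not called without mesoderm RB3 (0.45), ES cells RB2 (0.63) or RB3 (0.61). Id4 fell, at 0.285, 1.92 and 1.11 TPM in mesoderm, against 19.7, 20.6 and 15.3 TPM in ES cells (log2FC -3.74 ± 0.43, adjusted p = 0.000204).

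The shares of the Nodal and Activin list that rose and fell were near those over all genes. Of 17 genes 16 were tested, of which 3 rose and 3 fell (median -0.07). The receptors Acvr1b and Acvr2a and the transducer Smad3 did not pass the quasi-likelihood test (adjusted p = 0.267, 0.978 and 0.39). Foxh1, the DNA-binding partner of Smad2, was at 369, 443 and 417 TPM in mesoderm, against 105, 99.3 and 82.5 TPM in ES cells (log2FC 2.43 ± 0.10, adjusted p = 7.06e-07), and its mesoderm values lay close together. The inhibitors Lefty1 and Lefty2 fell, Lefty2 being at 2.43, 3.82 and 1.77 TPM in mesoderm, against 162, 137 and 94.8 TPM in ES cells (log2FC -5.31 ± 0.28, adjusted p = 1.77e-06) and Lefty1 at 0.264, 0.733 and 0.255 TPM in mesoderm, against 43.5, 32.3 and 31.6 TPM in ES cells (log2FC -6.15 ± 0.32, adjusted p = 6.12e-07, and -6.76 without mesoderm RB3). Gdf3, a ligand of the same family, fell to 0.163, 0.071 and 0.194 TPM against 167, 147 and 158 TPM in ES cells (log2FC -9.74 ± 0.19, adjusted p = 3.01e-09). The co-receptor Tdgf1 (Cripto) stayed high, at 245, 481 and 318 TPM in mesoderm, against 654, 627 and 564 TPM in ES cells, and its relative Cfc1 (Cryptic) rose, at 34.2, 20.7 and 19.6 TPM in mesoderm, against 0.969, 2.16 and 0.38 TPM in ES cells (log2FC 4.70 ± 0.49, adjusted p = 9.29e-05, and 5.52 without ES cells RB3).

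Wnt genes that rose included ligands, receptors and targets, in a comparison where both media held CHIR99021. Of 35 genes 33 were tested, of which 17 rose and 4 fell (median 1.66). Wnt5a, a ligand of the non-canonical arm, was at 75.8, 91.7 and 82.7 TPM in mesoderm, against 0.12, 0.129 and 0.293 TPM in ES cells (log2FC 9.12 ± 0.17, adjusted p = 3.01e-09). Wnt5b was at 69.9, 76.8 and 64.9 TPM in mesoderm, against 6.59, 5.06 and 5.19 TPM in ES cells (log2FC 3.99 ± 0.12, adjusted p = 3.84e-08). Wnt2 was at 8.51, 30.8 and 34.8 TPM in mesoderm, lowest in RB2, and at 0 in all ES libraries, at least 727-fold higher. The canonical target Axin2 was higher past the quasi-likelihood test alone, at 107, 87.3 and 84.7 TPM in mesoderm, against 67, 63.3 and 61 TPM in ES cells (log2FC 0.88 ± 0.12, quasi-likelihood adjusted p = 0.000147), and so was Sp5, at 76.8, 79.8 and 106 TPM in mesoderm, against 66, 60.6 and 38.7 TPM in ES cells (log2FC 1.00 ± 0.21, quasi-likelihood adjusted p = 0.00251). Other targets and feedback genes passed the test against a 2-fold change. Lef1 was at 49.2, 51.3 and 47.9 TPM in mesoderm, against 6.86, 6.31 and 3.77 TPM in ES cells (log2FC 3.51 ± 0.20, adjusted p = 2.6e-06) and Nkd1 at 93.7, 42.3 and 53.7 TPM in mesoderm, against 0.751, 1.24 and 0.641 TPM in ES cells (log2FC 6.50 ± 0.45, adjusted p = 1.32e-05), both higher, while the secreted inhibitors Sfrp1, at 1.94, 2.44 and 1.29 TPM in mesoderm, against 340.2, 327 and 289 TPM in ES cells (log2FC -7.09 ± 0.19, adjusted p = 1.49e-08), and Notum, at 17.6, 6.55 and 6.33 TPM in mesoderm, against 125, 98.9 and 88.6 TPM in ES cells (log2FC -3.01 ± 0.42, adjusted p = 0.00144, and -3.71 without mesoderm RB2), were lower. Among the TCF factors that carry the signal, only Lef1 passed the test against a 2-fold change. Tcf7l1, the repressor among them, was at 38.2, 44.4 and 45.6 TPM in mesoderm, against 104, 109 and 94.4 TPM in ES cells and Tcf7 at 94.3, 93.7 and 91 TPM in mesoderm, against 74, 72.4 and 56.7 TPM in ES cells. The Frizzled receptors split as well, Fzd7 (2.33 ± 0.22), Fzd2 (2.65 ± 0.20) and Fzd1 (4.71 ± 0.26) being higher and Fzd5 (-4.76 ± 0.17) lower.

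FGF and ERK genes rose in most cases, in a comparison where the ES medium blocked MEK and the mesoderm medium held FGF2. All 28 were tested, of which 19 rose and 3 fell (median 2.76). Fgf4, the autocrine ligand of ES cells, was at 2.08, 0.428 and 0.388 TPM in mesoderm, against 289, 260 and 271 TPM in ES cells, and its log2 fold change of -7.87 ± 0.51 (adjusted p = 7.61e-06) was -9.08 without mesoderm RB2. Fgf3 was at 108, 57.3 and 73.3 TPM in mesoderm, against 8.58, 6.79 and 4.55 TPM in ES cells (log2FC 3.93 ± 0.34, adjusted p = 4.88e-05). The receptor Fgfr1 was at 137, 101 and 100.3 TPM in mesoderm, against 48.9, 42.3 and 51.5 TPM in ES cells (log2FC 1.58 ± 0.16, adjusted p = 0.00216). ERK phosphatases that the pathway induces rose, Dusp6 at 37.7, 69.9 and 49.7 TPM in mesoderm, against 5.36, 5.57 and 6.47 TPM in ES cells (log2FC 3.49 ± 0.19, adjusted p = 1.53e-06) and Dusp4 at 20.1, 44.1 and 21.3 TPM in mesoderm, against 1.12, 0.721 and 1.08 TPM in ES cells (log2FC 5.17 ± 0.33, adjusted p = 4.01e-06). Egr1, an immediate target of ERK, was at 18.9, 20.5 and 23.1 TPM in mesoderm, against 0.142, 0.441 and 0.239 TPM in ES cells (log2FC 6.53 ± 0.27, adjusted p = 1.79e-07). The ETS factors Etv4 and Etv5, both known as FGF targets, moved in opposite directions, Etv4 at 62.4, 55.1 and 64.3 TPM against 8.72, 7.33 and 6.58 TPM in ES cells (log2FC 3.34 ± 0.15, adjusted p = 5.09e-07) and Etv5 at 41.7, 57 and 49.4 TPM against 227, 225 and 213 TPM (log2FC -1.84 ± 0.09, adjusted p = 5.06e-06). Among the Sprouty inhibitors, Spry4 rose, at 5.61, 13.3 and 10.8 TPM in mesoderm, against 0.544, 0.248 and 0.837 TPM in ES cells (log2FC 4.52 ± 0.42, adjusted p = 5.19e-05), and Spry2 was lower, at 33.7, 23 and 20.2 TPM in mesoderm, against 63.9, 67.2 and 66.2 TPM in ES cells (log2FC -1.02 ± 0.20, quasi-likelihood adjusted p = 0.00115). Myc, which FGF and Wnt both raise, was at 148, 107 and 91.9 TPM in mesoderm, against 6.46, 6 and 4.7 TPM in ES cells (log2FC 4.68 ± 0.24, adjusted p = 1.04e-06). Its relative Mycn was at 55.4, 76.3 and 61 TPM in mesoderm, against 98.4, 88.8 and 98.5 TPM in ES cells, and this row shares coding sequence with an ectopic Mycn row.

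**Figure D3:**
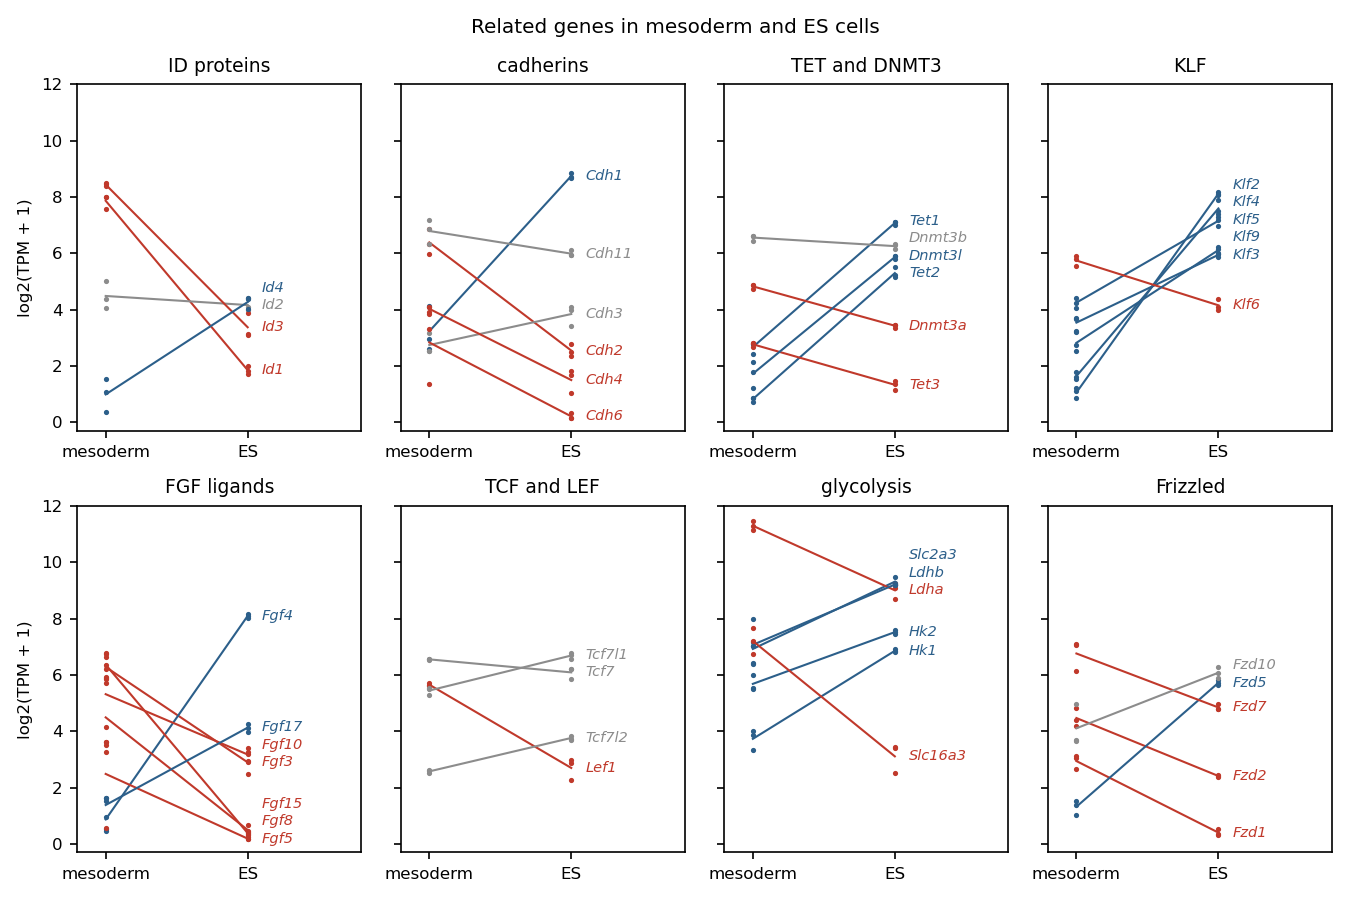
Level of related genes in 8 families, as log2(TPM + 1), with 3 mesoderm libraries at the left and 3 ES libraries at the right of each panel and a line joining the group means. Red genes rose, blue genes fell and grey genes did not pass the test against a 2-fold change. Cdh1 falls while Cdh2 rises, Id4 falls while Id1 and Id3 rise, and Tet1 and Tet2 fall while Tet3 and Dnmt3a rise.

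For VEGF, Notch and Hedgehog signalling, 15 of 25 tested genes rose and 4 fell, of 28 in the table (median 1.59). The co-receptors of Kdr rose with it, Nrp1 at 21.9, 51.9 and 57.6 TPM in mesoderm, against 0.196, 0.248 and 0.196 TPM in ES cells (log2FC 7.97 ± 0.48, adjusted p = 5.15e-06) and Nrp2 at 80, 92.2 and 81.3 TPM in mesoderm, against 6.12, 5.97 and 4.78 TPM in ES cells (log2FC 4.24 ± 0.11, adjusted p = 1.44e-08). The ligand Vegfa was at 19.7, 20.7 and 13.7 TPM in mesoderm, against 30.2, 33.9 and 23.6 TPM in ES cells and did not pass the quasi-likelihood test (adjusted p = 0.102). It was called lower with the ES line as a replicate block (log2FC -0.35) and without mesoderm RB2 (-0.49) or ES cells RB4 (-0.50). Limma on log2(TPM + 0.1) and log2(TPM + 1) also called it lower (-0.70 and -0.67). Notch receptors split, Notch3 being higher, at 115, 101 and 123 TPM in mesoderm, against 21.4, 18.7 and 17.6 TPM in ES cells (log2FC 2.90 ± 0.13, adjusted p = 7.59e-07), and Notch4, a receptor of endothelium, lower, at 0.59, 0.927 and 0.786 TPM in mesoderm, against 12.7, 11 and 8.83 TPM in ES cells (log2FC -3.49 ± 0.19, adjusted p = 1.4e-06). The ligand Jag1 fell, at 1.29, 1.14 and 1.14 TPM in mesoderm, against 33.6, 28.5 and 33.5 TPM in ES cells (log2FC -4.41 ± 0.13, adjusted p = 2.8e-08), while the target Hey1 rose, at 12.5, 32.8 and 28.7 TPM in mesoderm, against 1.48, 2.13 and 1.37 TPM in ES cells (log2FC 4.19 ± 0.37, adjusted p = 3.77e-05). Smo, the Hedgehog signal transducer, was at 115, 91.7 and 103 TPM in mesoderm, against 3.12, 2.91 and 2.53 TPM in ES cells (log2FC 5.52 ± 0.17, adjusted p = 2.36e-08). Gli3 rose and Gli2 fell (2.50 ± 0.11 and -1.53 ± 0.12). Ptch1, the target that reports Hedgehog activity, was at 16.1, 17.2 and 19.8 TPM in mesoderm, against 43.1, 42.9 and 41 TPM in ES cells, lower past the quasi-likelihood test alone (log2FC -0.93 ± 0.11, quasi-likelihood adjusted p = 4.41e-05), and the ligands Shh and Ihh did not pass the filter.

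Retinoic acid genes were dominated by Cyp26a1, the enzyme that degrades it. It was at 165, 315 and 185 TPM in mesoderm, highest in RB3, against 0, 0 and 0.054 TPM in ES cells. Of 18 genes 15 were tested, of which 8 rose and 1 fell (median 1.92). The number that rose was 4 without ES cells RB2 or RB3. The synthetic enzyme Aldh1a2, given above, was the 1 that fell. Crabp2, a carrier of retinoic acid, was at 11.3, 21.2 and 19.2 TPM in mesoderm, against 3.97, 3.73 and 6.06 TPM in ES cells (log2FC 2.23 ± 0.29, adjusted p = 0.0011). Crabp1 was at 72.7, 14.1 and 16 TPM in mesoderm, against 6.14, 7.13 and 8.9 TPM in ES cells, and its call rested on mesoderm RB2. Its log2 fold change of 2.58 ± 0.70 was 1.33 without that library, and the call was also lost without any 1 ES library (2.45, 2.55 and 2.72) and with the ES line as a replicate block (2.11).

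Chemokine and guidance genes, which steer migrating cells, rose in 12 of 21 tested genes and fell in 3, of 23 in the table (median 2.96). Plxnd1, a semaphorin receptor of mesoderm and vessels, was at 57.5, 61 and 64.7 TPM in mesoderm, against 0.381, 0.484 and 0.25 TPM in ES cells (log2FC 7.67 ± 0.18, adjusted p = 6.52e-09). Aplnr, the apelin receptor of cells leaving the streak, was at 19.9, 10.7 and 10.4 TPM in mesoderm, against 0, 0.022 and 0.033 TPM in ES cells. Cxcr4 is given above (log2FC 5.00 ± 0.18, adjusted p = 9.13e-08), and its ligand Cxcl12 rose as well, at 6.43, 8.3 and 7.69 TPM in mesoderm, against 1.37, 1.07 and 1.22 TPM in ES cells (log2FC 3.04 ± 0.20, adjusted p = 6.7e-06). The secreted cues Slit2 and Ntn1 fell, Ntn1 being at 0.478, 0.662 and 0.235 TPM in mesoderm, against 52.3, 44.6 and 45.5 TPM in ES cells (log2FC -6.40 ± 0.24, adjusted p = 1.12e-07) and Slit2 at 0.163, 0.529 and 0.296 TPM in mesoderm, against 25.6, 24.3 and 25.3 TPM in ES cells (log2FC -5.92 ± 0.24, adjusted p = 1.92e-07). The netrin receptor Unc5b was at 171, 174 and 144 TPM in mesoderm, against 28.1, 25 and 26 TPM in ES cells (log2FC 2.96 ± 0.10, adjusted p = 8.54e-08). Its relative Unc5c was highest in RB2, at 12.2, 2.29 and 3.25 TPM in mesoderm, against 0.054, 0.022 and 0.054 TPM in ES cells (log2FC 7.37 ± 1.01, adjusted p = 0.000616, and 6.22 without that library).

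Single enzymes of DNA methylation changed in opposite directions. Of 13 tested, 3 rose and 4 fell (median 0.31), not far above the shares over all genes (16.6% and 20.5%). Tet1 and Tet2, which oxidise methylcytosine, were at 4.4, 5.94 and 5.98 TPM and 0.824, 0.845 and 0.664 TPM in mesoderm, against 129, 138 and 136 TPM and 34.6, 36.4 and 45.3 TPM in ES cells, with log2 fold changes of -4.30 ± 0.12 and -5.32 ± 0.15 (adjusted p = 1.98e-08 and 1.89e-08). Tet3 rose, at 6.14, 5.37 and 6.06 TPM in mesoderm, against 1.59, 1.8 and 1.23 TPM in ES cells (log2FC 2.26 ± 0.17, adjusted p = 4.97e-05). The methyltransferase gene Dnmt3a rose, at 28.6, 25.8 and 28.2 TPM in mesoderm, against 10.1, 10.1 and 9.28 TPM in ES cells (log2FC 1.65 ± 0.11, adjusted p = 9.67e-05), Dnmt3b was higher by less than 2-fold (0.64 ± 0.08), and the cofactor gene Dnmt3l fell, at 3.46, 1.34 and 2.49 TPM in mesoderm, against 59.4, 54.4 and 59.1 TPM in ES cells (log2FC -4.24 ± 0.31, adjusted p = 1.16e-05). Imprinted genes, whose expressed copy depends on parental methylation, rose in 12 of 16 cases and fell in 2 (median 2.82). Mest was at 497, 722 and 728 TPM in mesoderm, against 22, 18.6 and 19.3 TPM in ES cells (log2FC 5.35 ± 0.16, adjusted p = 2.09e-08), Phlda2 at 2081, 1015 and 949 TPM in mesoderm, against 37.7, 38.1 and 30 TPM in ES cells (log2FC 5.61 ± 0.39, adjusted p = 1.42e-05) and Cdkn1c, an inhibitor of the cell cycle, at 97.5, 127 and 91.9 TPM in mesoderm, against 3.86, 3.65 and 3.73 TPM in ES cells (log2FC 5.14 ± 0.12, adjusted p = 7.05e-09). Phlda2 was highest in RB2, but in none of the 3 did the groups overlap. Plagl1, a zinc finger regulator of that network, fell, at 0.62, 1.85 and 0.643 TPM in mesoderm, against 55.9, 53.9 and 36.4 TPM in ES cells (log2FC -5.26 ± 0.37, adjusted p = 1.41e-05, and -5.86 without mesoderm RB3). Of 6 sex chromosome genes 3 fell and none rose, and the Y-linked Ddx3y was present in all 6 libraries, at 5.83, 7.92 and 6.91 TPM in mesoderm, against 28.9, 27.7 and 30 TPM in ES cells.

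Cell cycle genes rose in a share near that over all genes (16.6%) and fell in a smaller share than all genes (20.5%). Of 24 tested, 4 rose and 2 fell (median 0.11). A further 8 were higher and 5 lower by the quasi-likelihood test alone. Of the cyclins that drive entry into the cycle, Ccnd2 was at 53.6, 32.3 and 53.5 TPM in mesoderm, against 0.457, 0.388 and 0.923 TPM in ES cells (log2FC 6.66 ± 0.39, adjusted p = 3.4e-06) and Ccnd1 at 257, 245 and 211 TPM in mesoderm, against 117, 115 and 107 TPM in ES cells (log2FC 1.40 ± 0.10, adjusted p = 0.00103). Cdk2 was at 65.1, 79.8 and 60 TPM in mesoderm, against 207, 205 and 191 TPM in ES cells (log2FC -1.26 ± 0.08, adjusted p = 0.005). The proliferation marker Mki67 was at 44, 57.4 and 62.7 TPM in mesoderm, against 112, 107 and 105 TPM in ES cells, lower past the quasi-likelihood test alone (log2FC -0.66 ± 0.12, quasi-likelihood adjusted p = 0.000666). For p53 targets and apoptosis genes, 4 of 16 rose and 1 fell (median 0.14). Pmaip1 (Noxa) was at 52.8, 82.7 and 87.5 TPM in mesoderm, against 10.5, 6.94 and 16.1 TPM in ES cells (log2FC 3.06 ± 0.31, adjusted p = 0.000192), while Cdkn1a (p21), the standard target, was at 184, 214 and 179 TPM in mesoderm, against 261, 235 and 273 TPM in ES cells and did not pass the quasi-likelihood test (adjusted p = 0.32). Limma on log2(TPM + 0.1) and log2(TPM + 1) called Cdkn1a lower (-0.42 and -0.41).

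Glycolysis genes split by member. Of 20 tested, 4 rose and 5 fell (median 0.38), shares near those over all genes. Lactate dehydrogenase A, the form that makes lactate, was at 2819, 2267 and 2497 TPM in mesoderm, against 546, 604 and 411 TPM in ES cells (log2FC 2.62 ± 0.18, adjusted p = 1.47e-05), and Ldhb was at 143, 128 and 129 TPM in mesoderm, against 604, 592 and 579 TPM in ES cells (log2FC -1.81 ± 0.10, adjusted p = 1.2e-05). The lactate exporter Slc16a3 was at 200.2, 147 and 107 TPM in mesoderm, against 9.55, 9.75 and 4.68 TPM in ES cells (log2FC 4.48 ± 0.33, adjusted p = 2.19e-05). Both hexokinase genes fell, Hk1 at 9.13, 14.9 and 13.5 TPM in mesoderm, against 113, 119 and 113 TPM in ES cells (log2FC -2.85 ± 0.14, adjusted p = 1.03e-06) and Hk2 at 44.2, 63.4 and 45.7 TPM in mesoderm, against 184, 190.3 and 174 TPM in ES cells (log2FC -1.52 ± 0.10, adjusted p = 0.000266). The phosphofructokinase genes split, Pfkl being higher (1.62 ± 0.19) and Pfkp lower (-2.70 ± 0.17). The glucose transporter Slc2a3 was at 250.1, 82.7 and 84.4 TPM in mesoderm, against 709.5, 619 and 583 TPM in ES cells (log2FC -1.83 ± 0.45, adjusted p = 0.0497). Its log2 fold change was -2.63 without mesoderm RB2, and the call was lost without mesoderm RB3 (-1.54) or RB4 (-1.57) or any 1 ES library (-1.77, -1.85 and -1.90).

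Since only the mesoderm was sorted, immediate-early and heat shock genes, which handling of cells can raise, were counted. Of 19 genes 17 were tested, of which 7 rose and 1 fell (median 0.22, and 2 fell without mesoderm RB2 or RB3). Egr1 is given above, and Jun and Fos rose as well, Jun being at 16, 37.3 and 24.7 TPM in mesoderm, against 1.21, 1.08 and 2.09 TPM in ES cells (log2FC 4.47 ± 0.34, adjusted p = 1.51e-05) and Fos at 8.08, 7.54 and 6.28 TPM in mesoderm, against 1.8, 1.15 and 1.92 TPM in ES cells (log2FC 2.50 ± 0.25, adjusted p = 0.000196). Atf3 was at 12.3, 11.51 and 7.41 TPM in mesoderm, against 1.48, 2.26 and 2.36 TPM in ES cells (log2FC 2.68 ± 0.28, adjusted p = 0.000183). Ier2 and Ier3, which respond in the same way, did not pass the quasi-likelihood test (adjusted p = 0.223 and 0.793), and Nr4a1 was lower, at 13.5, 15.3 and 7.84 TPM in mesoderm, against 35.4, 33.1 and 44.8 TPM in ES cells (log2FC -1.32 ± 0.22, quasi-likelihood adjusted p = 0.000498). Hsp90aa1, a chaperone, fell, at 815, 966 and 855 TPM in mesoderm, against 4030.1, 4291 and 4275 TPM in ES cells (log2FC -1.93 ± 0.09, adjusted p = 3.27e-06), and the stress-induced Hspa1a did not pass the quasi-likelihood test (adjusted p = 0.128). The part of handling in the FGF and ERK genes above was not tested.

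Over all genes, the largest rises in abundant transcripts included genes outside these lists. Car4, a carbonic anhydrase on the cell surface, was at 305, 171 and 102 TPM in mesoderm, against 0, 0.075 and 0 TPM in ES cells. Pmp22, a membrane protein of the claudin superfamily known from myelin, was at 274, 412 and 355 TPM in mesoderm, against 0.577, 0.258 and 0.348 TPM in ES cells (log2FC 10.10 ± 0.21, adjusted p = 4.11e-09). Vstm2b, an immunoglobulin-domain protein, was at 141, 321 and 290.4 TPM in mesoderm, against 0.218, 0.065 and 0.065 TPM in ES cells (log2FC 11.33 ± 0.51, adjusted p = 7.06e-07, and 12.02 without ES cells RB2). Pcdh7, a protocadherin, was at 32.3, 60.8 and 55.4 TPM in mesoderm, against 0.044, 0.022 and 0.076 TPM in ES cells (log2FC 10.28 ± 0.39, adjusted p = 1.53e-07, and 10.89 without ES cells RB4). Tgfb1i1, a focal adhesion adaptor, was at 41, 76.1 and 66.8 TPM in mesoderm, against 0.033, 0.032 and 0.033 TPM in ES cells. The largest falls were Tcl1, Rex2, Osm, Morc1, Mcf2 and Dppa3, none of which exceeded 0.041 TPM in a mesoderm library. Tdh, the threonine dehydrogenase on which mouse ES cells depend, was at 0.214, 0.356 and 0.245 TPM in mesoderm, against 892, 868 and 894 TPM in ES cells (log2FC -11.32 ± 0.13, adjusted p = 5.51e-10). Obox6, an oocyte homeobox gene, was at 0 in mesoderm and at 46.2, 47.7 and 37.7 TPM in ES cells, at least 689-fold lower.

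Among the most abundant transcripts that rose were Tuba1a, an alpha-tubulin, at 2217, 2695 and 2709 TPM in mesoderm, against 399, 420.2 and 420.3 TPM in ES cells (log2FC 2.95 ± 0.10, adjusted p = 1.12e-07), S100a10, the annexin A2 partner, at 1177, 1631 and 1706 TPM in mesoderm, against 83.9, 84.5 and 77.3 TPM in ES cells (log2FC 4.52 ± 0.14, adjusted p = 3.31e-08), and Mdk, the growth factor midkine, at 1293, 1400 and 1161 TPM in mesoderm, against 219, 195 and 157 TPM in ES cells (log2FC 3.08 ± 0.13, adjusted p = 3.08e-07). Among those that fell were Dppa5a, an RNA-binding protein of ES cells, at 10.8, 5 and 9.4 TPM in mesoderm, against 5006, 5031 and 5059 TPM in ES cells (log2FC -8.88 ± 0.27, adjusted p = 3.67e-08), and Spp1, the secreted matrix protein osteopontin, at 0.549, 4.8 and 4.45 TPM in mesoderm, against 1266, 1134 and 1089.8 TPM in ES cells (log2FC -8.12 ± 0.47, adjusted p = 4.12e-06). Apoe was at 354, 388 and 396 TPM in mesoderm, against 1734, 1409 and 1365 TPM in ES cells (log2FC -1.65 ± 0.11, adjusted p = 8.91e-05). Reads of Dppa5a can be shared with near-identical copies, so its level is uncertain.

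The 3 mesoderm libraries differed from each other far more than the 3 ES libraries did. Counting genes at least 2-fold above or below both other libraries of their group, mesoderm RB2 had 57 above and 128 below, RB3 had 43 above and none below, and RB4 had 1 above and 15 below, of 9416 genes considered. Among ES libraries RB4 had 4 above and 5 below of 9827, and RB2 and RB3 had none. The levels of Hand1, Foxf1, Cdx2, Msgn1 and Hoxb1 were higher in RB2 than in both other lines, and those of Eomes, Gsc, Lhx1, Fgf5 and Sox3 were lower. Fgf15, Gpr124, Car2 and Apln also differed widely between the lines. Fgf15 was at 81.2, 10.4 and 11.2 TPM in mesoderm, against 0.294, 0.614 and 0.348 TPM in ES cells (log2FC 6.69 ± 1.20, and 4.96 without mesoderm RB2). Gpr124, a receptor of developing vessels, was at 37.9, 5.19 and 6.14 TPM in mesoderm, against 0.152, 0.14 and 0.315 TPM in ES cells (log2FC 6.72 ± 1.12, and 5.11 without that library). Car2, a carbonic anhydrase, ran the other way, at 83.2, 448 and 340.3 TPM in mesoderm, against 5.31, 4.63 and 4.05 TPM in ES cells (log2FC 6.26 ± 0.63, adjusted p = 0.000112). Apln, the apelin ligand, was highest in RB3, at 4.08, 32 and 14.4 TPM in mesoderm, against 0.577, 1.24 and 0.641 TPM in ES cells (log2FC 4.62 ± 0.75, adjusted p = 0.00195, and 3.88 without that library). With 1 library per line and stage, a feature of line RB2 and a feature of that culture cannot be told apart.

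**Figure D4:**
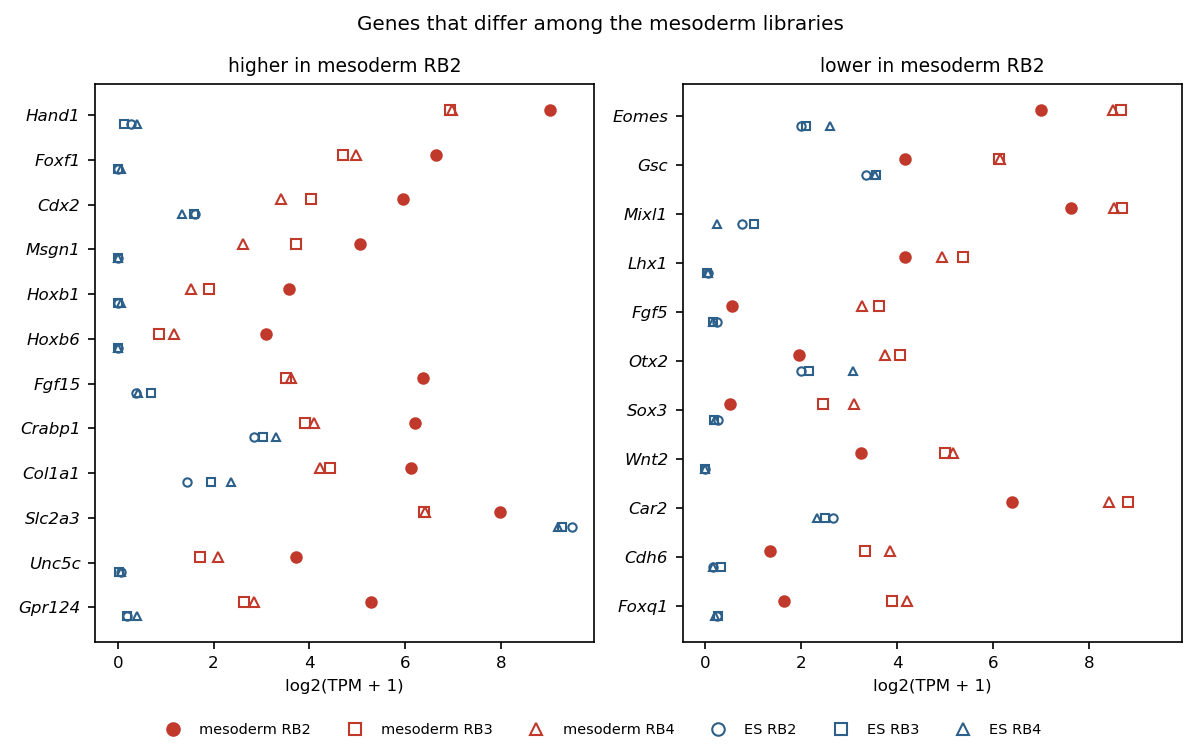
Level of genes that differ among the mesoderm libraries, as log2(TPM + 1), with genes higher in mesoderm RB2 at the left and genes lower in it at the right. Filled circles are mesoderm RB2 and open red symbols the other 2 mesoderm libraries, and blue symbols are ES cells. Hand1 stands at 521 TPM in RB2 against 121 and 125 TPM in RB3 and RB4, and Eomes at 127 TPM against 405 and 362 TPM.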

How the data were processed

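The deposited tables held expected counts per gene that the authors estimated for each library, and their TPM, which divide by gene length and depth. TPM columns could be used for 30 of the 31 libraries, among them the 6 compared here. The submitters' processing notes list CASAVA 1.8.2, Bowtie 0.12.9, RSEM 1.2.3 and the build mm10. Per the labels' protocols, total RNA was extracted with Trizol and RNeasy columns with DNase, and the kit for libraries was the TruSeq RNA Sample Prep Kit (v2). How the counting treated strand is not given in the sources used here, so overlapping and antisense genes cannot be told apart, and members of near-identical gene families are uncertain. The deposited tables also have 1 column of sample values that matched no label and was not used.

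Expected counts were rounded to whole numbers and fitted with edgeR 4.0.16 (R 4.3.3) over the 6 libraries, with TMM factors and the filterByExpr filter, which kept 13539 of 20314 genes. The quasi-likelihood test and the test against a 2-fold change (glmTreat) were adjusted by Benjamini-Hochberg over all genes tested, at 0.05. For a gene at 0 in one group, the fold is a lower bound against a floor of 3 counts over that group. For a gene with up to 3 counts in one group, TPM alone are given. Fits were tested on simulated data. The groups follow the labels, and the same ES line gave both libraries of a number, so the numbers pair the samples. The deviations of same-line libraries from their group means correlated at 0.0521 for RB2, -0.0615 for RB3 and 0.0313 for RB4. With the ES line as a replicate block, the quasi-likelihood test called 5177 higher and 5348 lower genes, and the test against a 2-fold change called 2207 and 2768. Alternatives were DESeq2 1.42.0 size factors and Wald test, upper-quartile factors, limma 3.58.1 on log2(TPM + 1) and log2(TPM + 0.1), other filters, and leaving out each library.

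The comparison, its gene lists and families were chosen with earlier results of these data known. The lists on sterol synthesis, interferon and antigen presentation, germline and meiosis, keratins, and metallothioneins and threonine catabolism were drawn up after values were seen. Genes were named by rule: Kdr, members of paralog families, the 5 largest changes of a list in each direction with at least 5 TPM, members that passed neither test, the 15 largest changes over all genes with at least 20 TPM and no overlap, the 15 most abundant, and the 15 with the widest range within a group. Other list members are named as examples, chosen after their values were seen. Sequences come from RefSeq promoter tables on GRCm38.p6. Whether replicates came from separate cultures beyond their lines is not stated, so p-values measure the spread between these libraries.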

Additional observations from a re-analysis of the deposited data

Results flagged for a closer look

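The deposited table has separate rows for ectopic copies of 5 genes, and 4 of them had counts in mesoderm libraries that the comparison above does not use. No transgene is named in the labels of these 6 libraries. The ectopic Lmo2 row had 56.13, 0 and 45.03 expected counts in mesoderm and 0, 0 and 0.61 in ES cells, for RB2, RB3 and RB4 in that order. The ectopic Mycn row reached 29.97 counts in mesoderm RB4 and 21.22 in ES cells RB3, and was at 0 in the other 4 libraries. The ectopic Sox17 row reached 17.4 counts in mesoderm RB4, against 3.68 and 4.09 in ES cells RB2 and RB4. The ectopic Tal1 row had 7.19 counts in mesoderm RB4 and 0 in all 3 ES libraries. The ectopic Gata2 row did not exceed 1.24 counts. Each of these rows shares its coding sequence with the endogenous row, so reads can be split between them. Lmo2, Mycn, Sox17 and Tal1 levels in the text above come from the endogenous rows alone.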

How the results depend on the processing

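No named gene with a call changed sign under any of the 14 alternatives. The count of genes higher past a 2-fold change was 2253 in the fit reported and moved by more than 1.5 times under 1 alternative, limma on log2(TPM + 1), where it was 1121. Limma on log2(TPM + 0.1) gave 1512. Leaving out each library in turn gave 2104 to 2355 higher and 2665 to 2985 lower genes past a 2-fold change, and 4975 to 5520 higher and 5103 to 5713 lower by the quasi-likelihood test. The DESeq2 Wald test called 5219 higher and 5446 lower genes, and 1844 and 2367 past a 2-fold change. With the replicate block on ES line, 4921 of the 5034 genes past a 2-fold change in the fit reported were called again. Among the 265 named genes tested, 33 lost their call in at least 1 alternative, most often on the log2(TPM + 1) scale (28 genes). That scale compresses low values, and its log2 fold changes were also shifted by a median of -0.32 from the fit reported. On the log2(TPM + 0.1) scale the shift was -0.33. Ccnd1 and Fgfr1, both abundant, were among 12 genes that lost the call on both scales. The others were Crabp1, Gcat, Gsc, Id2, Itga2b, Otx2, Pfkl, Smad2, Srebf2 and Tie1. Which of these features ended each call was not tested. Beside the losses named in the text, the block ended the call of Mycn. In 20 of 3710 pairs of a named gene and an alternative, a gene with no call in the fit reported gained one. Limma on both TPM scales called Acvr1b, Bmpr1a, Cdkn1a, Hspa1a, Myl7, Smad7 and Vegfa lower. Depth limits what can be said of genes under the filter on low counts.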

Other observations

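Sterol synthesis genes, a list drawn up after values were seen, were higher in mesoderm. Of 23 tested, 15 passed the test against a 2-fold change in that direction and none in the other, with a median log2 fold change of 1.48 against -0.004 over all genes. Mvd, an early enzyme of the mevalonate pathway, was at 341, 467 and 372 TPM in mesoderm, against 48.7, 48.9 and 49.5 TPM in ES cells (log2FC 3.32 ± 0.09, adjusted p = 2.35e-08). Fdps, which makes farnesyl diphosphate, was at 1335, 1447 and 1349 TPM in mesoderm, against 293, 312 and 323 TPM in ES cells (log2FC 2.48 ± 0.08, adjusted p = 1.58e-07). Srebf2, the factor that drives the pathway, was at 327, 361 and 358 TPM in mesoderm, against 176, 158 and 146 TPM in ES cells (log2FC 1.46 ± 0.09, adjusted p = 0.000315). Its call was lost with limma on log2(TPM + 0.1) and log2(TPM + 1) (1.13 and 1.12). On either of these scales 10 genes of the list were higher past a 2-fold change. The mesoderm values of Mvd were lowest in RB2, and none of these 3 genes overlapped between groups.

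Interferon and antigen presentation genes split. Of 20 genes 15 were tested, of which 7 rose and 3 fell (median 1.35). The immunoproteasome gene Psmb8 was at 15.7, 17.2 and 9.48 TPM in mesoderm and 0 in all ES libraries, at least 282-fold higher. Tap1, the peptide transporter, was at 19, 19.2 and 15.7 TPM in mesoderm, against 1.46, 1.45 and 2.33 TPM in ES cells (log2FC 3.73 ± 0.20, adjusted p = 1.25e-06), and H2-K1, a class I heavy chain, at 76.8, 56.5 and 34.1 TPM in mesoderm, against 12.1, 12.3 and 9.35 TPM in ES cells (log2FC 2.64 ± 0.30, adjusted p = 0.000464). Usp18, an interferon-induced protease, was at 14.1, 42.4 and 31.2 TPM in mesoderm, against 0, 0 and 0.054 TPM in ES cells. Irf9, a factor that carries the interferon signal, was lower, at 4.86, 7.12 and 4.34 TPM in mesoderm, against 36.2, 34.5 and 37.5 TPM in ES cells (log2FC -2.26 ± 0.15, adjusted p = 2.03e-05). Ifit1 and Ifit3 did not exceed 0.061 TPM in any library. Reads of H2-K1 can be shared with other class I genes.

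Of 5 tested keratins of simple epithelia 3 rose and 2 fell. Krt19 was at 71, 105 and 57.7 TPM in mesoderm, against 2.7, 2.76 and 3.85 TPM in ES cells (log2FC 4.96 ± 0.23, adjusted p = 4.43e-07), whereas Krt42 was at 0, 0 and 0.041 TPM in mesoderm, against 61.4, 59.8 and 67.2 TPM in ES cells. Of 9 tested metallothionein and threonine catabolism genes none rose and 4 fell (median -1.28). The metal-binding proteins Mt1 and Mt2 were at 13.8, 32.2 and 22.4 TPM and 8.56, 29.8 and 15.2 TPM in mesoderm, against 1636, 1521 and 1858 TPM and 2039, 2072 and 2288 TPM in ES cells, with log2 fold changes of -5.88 ± 0.23 and -6.60 ± 0.35 (adjusted p = 2.61e-07 and 2.57e-06). Amt, of the glycine cleavage system, was at 18, 22.2 and 17 TPM in mesoderm, against 236, 253 and 238 TPM in ES cells (log2FC -3.34 ± 0.09, adjusted p = 2.8e-08), while Gcat, which acts after Tdh in threonine breakdown, was at 169, 135 and 164 TPM in mesoderm, against 157, 158 and 136 TPM in ES cells and did not pass the test against a 2-fold change.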
